A study of Mus musculus with 8 samples.

Results

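The axon guidance genes of muscle pericytes and smooth muscle cells (SMCs) were examined: the semaphorins and their plexin receptors, the Eph receptors and their ephrin ligands, the Slits and their Robo receptors, and the netrins. Members were matched by gene symbol, with earlier results of these data known, and 63 of the 37979 genes in the table matched, under 62 symbols. They comprised 20 semaphorins, 9 plexins, 14 Eph receptors, 9 ephrins, 3 Slits, 4 Robos and 4 netrins, of which 36 encode ligands and 27 encode receptors. Bulk RNAseq was performed on 8 libraries, 4 of pericytes and 4 of SMCs, freshly sorted from hindlimb muscle. The mice were Ai14+/-;SM22α-Cre+, of both sexes and aged 3 to 4 months. Every library came from mice with both alleles, so that Cre driven by the SM22α promoter permanently switched on tdTomato. After CD31+, CD45+ and DAPI high cells had been gated out, pericytes were taken as PDGFRβ+tdTomato- cells and SMCs as PDGFRβ+tdTomato+ cells. A library is a pool of cells from more than 1 sort, about 60000 in all, and a pericyte with a history of SM22α promoter activity would fall into the SMC gate. Sharing of animals between libraries is not stated in the sources used here, so the p-values measure only the spread between these libraries.

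Axon guidance molecules were named for steering growing nerve fibres, but the same ligands and receptors act between many cell types. Semaphorins signal through plexins, and the secreted class 3 members mostly need a neuropilin as well. Ephrins are held at the cell surface and bind Eph receptor tyrosine kinases on a touching cell, with signals passing into both cells. In blood vessels, Ephb4 marks veins and its ligand Efnb2 marks arteries, Robo4 belongs to endothelium, and semaphorin to plexin signals pattern vessel growth. Some class 4 semaphorins act between leukocytes.

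Levels are given in FPKM, which scales fragments to transcript length and library total and so allows genes to be compared with each other. Differences were tested by limma on log2(FPKM + 1), where the added 1 shrinks the differences of weakly expressed genes, and a gene was called at a q value (Benjamini-Hochberg adjusted p over 27414 genes) below 0.05. A log2 fold change is given as pericytes minus SMCs. The number of fragments behind a value is unknown, and relative depth, estimated from values below 0.3 FPKM, differed by at most 1.23 times among libraries.

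Marker genes were summed first, because in bulk samples fewer cells of a type and less RNA per cell cannot be told apart. The 8 pericyte markers summed to 43.4 to 110.7 FPKM in pericyte libraries and 87.0 to 372 FPKM in SMC libraries, against the pericyte label, and none of the 8 was called higher in pericytes. Their sum in the SMC libraries was 2.97 times that in the pericyte libraries, and 1 of them, Rgs5, was called higher in SMCs. The 8 smooth muscle markers summed to 591 to 1892 FPKM in pericytes and 1775 to 5713 FPKM in SMCs, with none called. All 10 T cell markers and all 10 B cell markers were called higher in pericytes, at 1891 to 2619 against 22.9 to 39.1 FPKM and at 993 to 2189 against 13.3 to 35.6 FPKM, despite the gate against CD45. Of 12 endothelial markers, 9 were called higher in SMCs, at 607 to 1698 against 129 to 235 FPKM, despite the gate against CD31. Of 10 fibroblast markers, 8 were called higher in SMCs, at 4445 to 6009 against 1111 to 1967 FPKM, and 1, Dcn, was called higher in pericytes and listed at 0 in all 4 SMC libraries. Macrophage markers summed to 888 to 1812 FPKM in pericytes and 1379 to 2060 FPKM in SMCs (6 of 9 measured called higher in SMCs), and Schwann cell markers to 396 to 1539 and 681 to 1021 FPKM (1 of 7 measured called higher in pericytes). Neuronal markers reached 5.45 to 12.0 FPKM in pericytes and 22.4 to 42.3 FPKM in SMCs with 5 of 8 below 1 FPKM in every library (1 called higher in each group), and skeletal muscle fibre markers reached 39.4 to 48.3 and 35.2 to 50.1 FPKM (2 of 8 called higher in pericytes). The groups are called pericytes and SMCs below as labels of the sort, and the part of other cell types in the differences was not tested.

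Most axon guidance genes that differed were higher in SMCs. Of the 63 members, 3 were called higher in pericytes (Sema4d, Sema4a and Plxnc1) and 21 higher in SMCs, whereas 39 were not called. Among all genes tested, 10.6% were called higher in pericytes and 11.2% higher in SMCs, and the counts by class below stand beside these shares. With TPM scaling, which gives each library the same sum, the share of all calls that were higher in pericytes moved from 48.8% to 36.2%, while the members' calls moved only to 3 and 22. Past a log2 fold change of 2 in size as well, 2 members were higher in pericytes (3.24% of all genes) and 5 higher in SMCs (2.66% of all genes). The 5 became 3 without pericyte replicate 2, pericyte replicate 3 or SMC replicate 4, and 13 with a pseudocount of 0.1, and neither the 2 nor the 5 passed when the fold threshold was put inside the test (limma treat). Groups that did not overlap had the pericyte libraries on top in 3 members and the SMC libraries on top in 23, compared with 12.1% and 12.5% of all genes. The log2 fold change was below 0 in 48 members and above 0 in 15, with a median of -0.63 against 0.02 over all genes tested.

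A total of 40 members had a mean of at least 1 FPKM over the 8 libraries. Of these, 3 were called higher in pericytes and 14 higher in SMCs, against 19.7% and 19.5% of the 13612 genes at that level, and their median log2 fold change was -0.90 against 0.05. In every pericyte library 15 members reached 1 FPKM, whereas 31 did so in every SMC library, and 13 members stayed below 1 FPKM in all 8. No member was listed at 0 throughout. Ranked by mean level, Sema4a, Sema4d, Plxnb2 and Efna1 led in pericytes, at 54.7, 44.6, 13.6 and 12.1 FPKM. In SMCs, Efna1, Plxnb2, Sema3b and Robo4 led, at 63.5, 26.8, 24.1 and 20.8 FPKM.

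**Figure D1:**
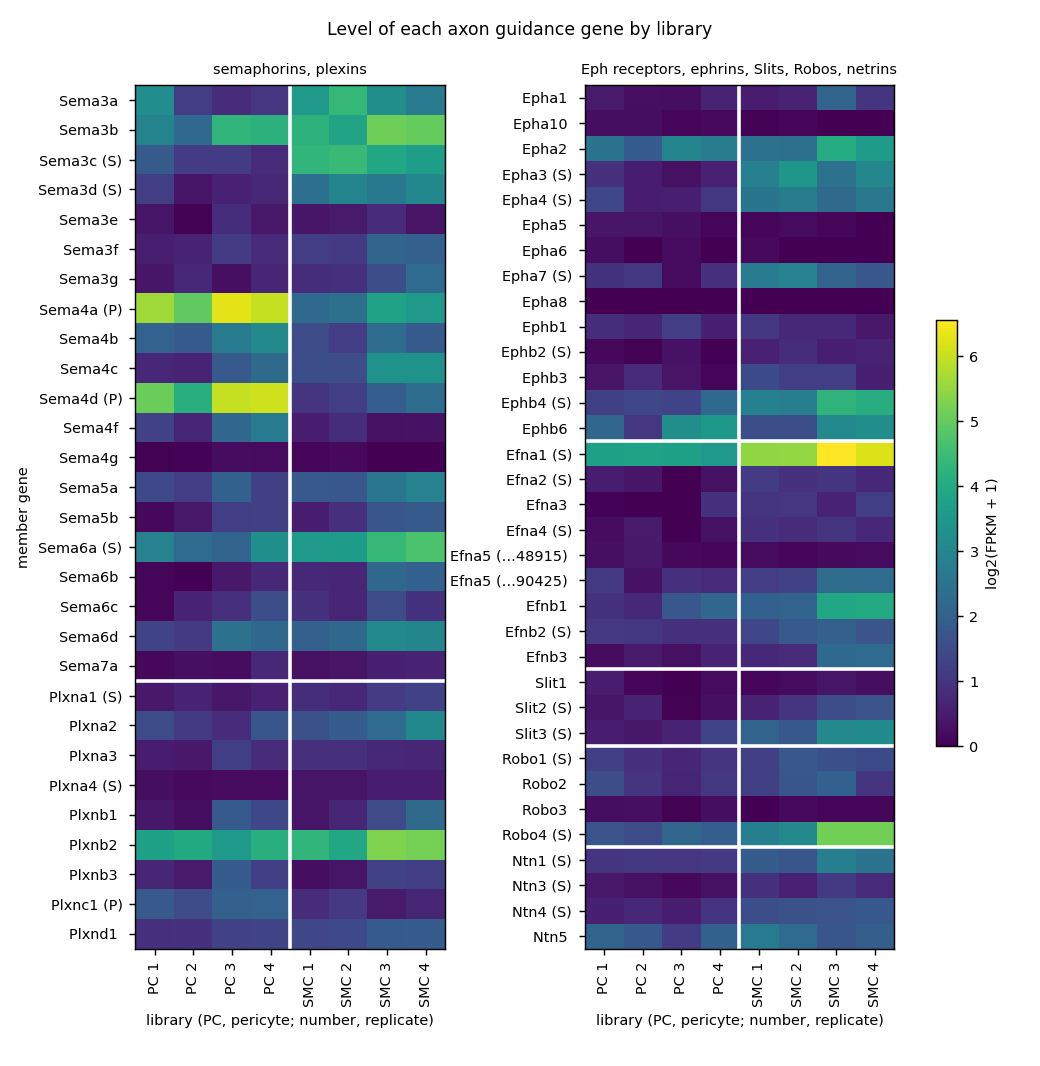
Level of each of the 63 members as log2(FPKM + 1) (colour) in the 4 pericyte (PC) and 4 SMC libraries (columns), with white lines between groups and classes, and P or S after a gene called higher in pericytes or SMCs by limma. Sema4a and Sema4d stand out in the pericyte columns, and Efna1 is the brightest gene in the SMC columns.

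Class 4 was the only semaphorin class with members called higher in pericytes: 2 of 6 were called, 5 of 6 had a log2 fold change above 0 and the median was 0.96. Sema4d (ENSMUSG00000021451, chr13:51796615-51889116, minus strand, NCBI Build 37) encodes CD100, a membrane semaphorin of T cells that binds B-type plexins and the B cell receptor CD72. It measured 32.9, 16.2, 62.1 and 67.2 FPKM in pericyte replicates 1 to 4 and 0.981, 1.33, 2.93 and 4.09 FPKM in SMC replicates 1 to 4. The lowest pericyte library was well above the highest SMC library, and the log2 fold change was 3.68 (SE 0.51, 95% confidence interval 2.48 to 4.89, limma q = 0.00227), a 19.1-fold ratio of mean FPKM. Sema4a (ENSMUSG00000028064, chr3:88239881-88265104, minus strand, Build 37), known from antigen-presenting and helper T cells, measured 48.8, 30.4, 77.0 and 62.6 FPKM in pericytes and 3.73, 4.34, 12.8 and 10.7 FPKM in SMCs. The groups did not overlap here either, and the log2 fold change was 2.72 (SE 0.44, limma q = 0.00447), a ratio of 6.91.

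The leukocyte markers moved with these genes between the groups, at 4794 to 7868 FPKM in pericytes and 289 to 390 FPKM in SMCs with 8 of 8 called. Among the pericyte libraries, replicate 2 had the lowest Sema4d and Sema4a. Its FPKM summed to 1190440 over all genes, against 690247 to 782014 in the other pericyte libraries, so its place by leukocyte markers depended on the scale. The leukocyte sum of pericyte replicates 1 to 4 was 4794, 7868, 5555 and 5834 FPKM, highest in replicate 2, but 6945, 6609, 7731 and 7460 TPM (FPKM rescaled to the same total in each library), lowest in replicate 2. The Schwann cell markers summed to 454, 396, 1539 and 1241 FPKM in pericyte replicates 1 to 4, but overlapped between the groups. Their order of libraries was that of Sema4a but not that of Sema4d, which was highest in replicate 4. The part of either cell type in the Sema4d and Sema4a values was not tested. Of the other class 4 members, Sema4b had 4.72 ± 2.28 FPKM (SD, n = 4) in pericytes and 2.44 ± 1.18 in SMCs (limma q = 0.222). Sema4f measured 1.39, 0.590, 3.46 and 5.57 FPKM in pericytes and at most 0.805 FPKM in SMCs (log2 fold change 1.21, limma q = 0.0971). Sema4c pointed the other way, at 1.90 ± 1.60 and 5.64 ± 4.27 FPKM (limma q = 0.283), and Sema4g stayed at or below 0.167 FPKM everywhere.

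**Figure D2:**
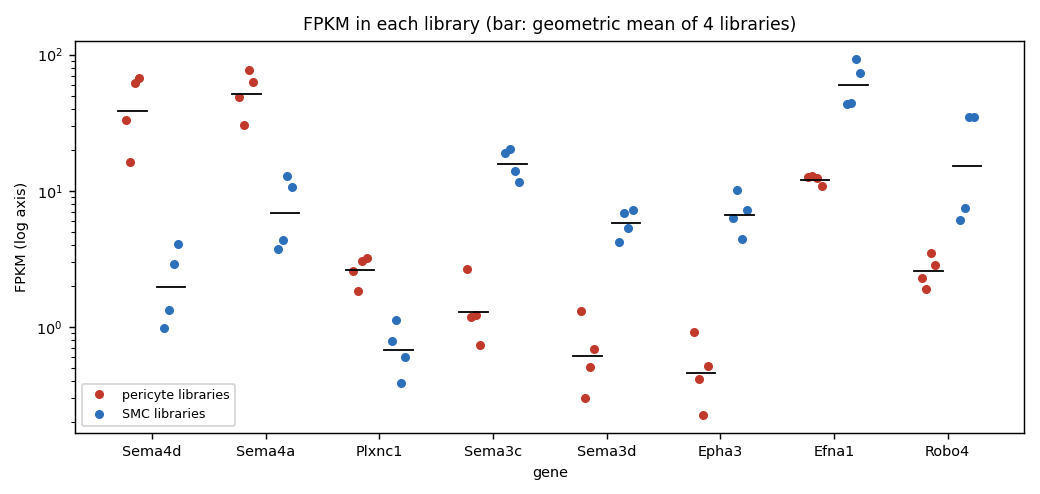
FPKM on a log axis of the 8 members that were called higher in pericytes or were called higher in SMCs past a log2 fold change of 2 in size, with a point for each library and a bar at the geometric mean of 4. In all 8 genes the pericyte and SMC points do not overlap, and the SMC points of Robo4 form a lower pair (6.10 and 7.51 FPKM) and an upper pair (34.6 and 34.8 FPKM).

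Class 3 semaphorins, the secreted members, had the opposite pattern. All 7 had a log2 fold change below 0 with a median of -1.12, and 2 were called, both higher in SMCs. Sema3c (ENSMUSG00000028780, chr5:17080099-17236086, plus strand, Build 37), a ligand known for its role in outflow tract development of the heart, measured 2.66, 1.19, 1.22 and 0.745 FPKM in pericytes and 19.0, 20.3, 13.9 and 11.7 FPKM in SMCs. No SMC library reached down to the pericyte range, with a log2 fold change of -2.84 (SE 0.26, limma q = 0.000375) and a ratio of 11.2. Sema3d (ENSMUSG00000040254, chr5:12383166-12588943, plus strand, Build 37), which guides endothelial cells in development, measured 1.31, 0.302, 0.510 and 0.693 FPKM in pericytes and 4.24, 6.83, 5.30 and 7.29 FPKM in SMCs. The groups were again apart (log2 fold change -2.03, SE 0.22, limma q = 0.000688, ratio 8.41).

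The other class 3 members did not pass the main test. With replicates 1 and 2 against 3 and 4 as a covariate, Sema3a, Sema3b and Sema3f did (limma q = 0.0226, 0.00890 and 0.00639). Sema3a, the founding repulsive semaphorin, measured 8.26 FPKM in pericyte replicate 1 and 0.771 to 1.29 FPKM in the other pericyte libraries, against 5.42 to 19.5 FPKM in SMCs (log2 fold change -1.89, limma q = 0.0639). Its overlap with the SMC range came from that 1 pericyte library. Sema3b, the most abundant class 3 member, measured 11.7 ± 7.65 FPKM (SD, n = 4) in pericytes and 24.1 ± 10.1 in SMCs (limma q = 0.212), and Sema3f measured 0.738 ± 0.345 and 2.23 ± 1.18 FPKM (limma q = 0.0766). Sema3g, known from arterial endothelium, measured 0.308, 0.690, 0.195 and 0.641 FPKM in pericytes and 0.815, 0.844, 1.95 and 3.90 FPKM in SMCs. Its groups did not overlap, but the log2 fold change of -0.87 was not called (SE 0.33, limma q = 0.115). Sema3e, the ligand of Plxnd1, stayed at or below 0.826 FPKM in all libraries.

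The make-up of semaphorin expression differed between groups, whereas its total overlapped. All semaphorins together summed to 65.6 to 188 FPKM in pericytes and 81.7 to 137 FPKM in SMCs. Sema4a and Sema4d made up 69.9%, 71.0%, 73.9% and 69.5% of the sum in pericytes but 5.77%, 6.19%, 11.5% and 10.9% in SMCs. Class 3 members made up 17.0%, 11.9%, 12.6% and 11.6% in pericytes and 66.5%, 67.9%, 49.2% and 46.2% in SMCs. These shares describe the libraries and were not tested, and without Sema4a and Sema4d the sums were 19.1 to 57.0 FPKM in pericytes and 77.0 to 122 FPKM in SMCs. The class 3 share of the whole also falls where Sema4a and Sema4d fill more of it. Of the sum without these genes, the class 3 share overlapped between groups. It was 19.9 of 35.2 FPKM in pericyte replicate 1 and 63.0 of 121 FPKM in SMC replicate 4. Class 3 itself summed to 7.80 to 23.8 FPKM in pericytes and 54.3 to 67.6 FPKM in SMCs.

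**Figure D3:**
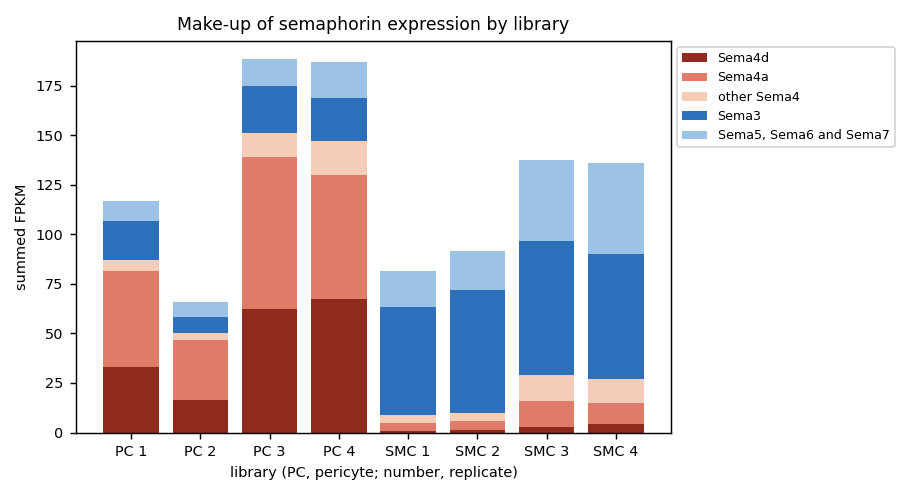
Summed FPKM of the 20 semaphorins in each library (PC, pericyte), split into Sema4d, Sema4a, the other class 4 members, class 3, and classes 5 to 7. Sema4a and Sema4d fill 69.5% to 73.9% of the pericyte bars and class 3 fills 46.2% to 67.9% of the SMC bars.

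Of the 7 transmembrane and anchored members of classes 5 to 7, all had a log2 fold change below 0 and 1 was called. That is near the 11.2% of all genes tested that were called higher in SMCs. Sema6a, which binds A-type plexins, measured 6.49, 3.86, 3.32 and 8.57 FPKM in pericytes and 10.5, 11.2, 19.7 and 25.3 FPKM in SMCs. The groups were apart (log2 fold change -1.42, SE 0.36, limma q = 0.0297), but the call was lost without pericyte replicate 1, 2 or 3 or without SMC replicate 3 or 4 (q up to 0.0790), and with no filter. Sema6d had 2.70 ± 1.59 FPKM (SD, n = 4) in pericytes and 5.29 ± 2.31 in SMCs (limma q = 0.224), and Sema6b 0.280 ± 0.291 and 2.01 ± 1.57 FPKM (limma q = 0.0993). Sema5a ranged from 1.28 to 3.13 FPKM in pericytes and 2.46 to 6.56 FPKM in SMCs, Sema5b from 0.111 to 1.39 and 0.439 to 2.59 FPKM, and Sema6c from 0.0618 to 1.91 and 0.619 to 1.90 FPKM, all with overlap. Sema7a, a membrane-anchored semaphorin of lymphocytes and the ligand of Plxnc1, measured 0.0950, 0.213, 0.170 and 0.665 FPKM in pericytes and 0.225, 0.273, 0.481 and 0.584 FPKM in SMCs, which overlapped (log2 fold change -0.12, 95% confidence interval -0.48 to 0.23, limma q = 0.656).

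Of the 9 plexins, the semaphorin receptors, 1 was called higher in pericytes, 2 higher in SMCs and 6 were not called. Over all genes tested the shares were 10.6% and 11.2%, and 1 of 9 is near the first. The median log2 fold change of the plexins was -0.25. That median was -0.50 without SMC replicate 1, -0.40 without SMC replicate 2 and -0.45 without pericyte replicate 3. Plxnc1 (ENSMUSG00000074785, chr10:94253617-94407212, minus strand, Build 37) encodes a receptor that is found on leukocytes and binds Sema7a. It measured 2.56, 1.85, 3.04 and 3.20 FPKM in pericytes and 0.792, 1.12, 0.390 and 0.601 FPKM in SMCs. Every pericyte library was above every SMC library (log2 fold change 1.09, SE 0.17, limma q = 0.00378, ratio 3.67), with the leukocyte markers given above moving the same way. Their part was not tested.

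Plxnb2, a receptor of Sema4 ligands, was the most abundant plexin of both groups at 12.5, 14.7, 10.7 and 16.4 FPKM in pericytes and 19.1, 14.3, 38.2 and 35.7 FPKM in SMCs. SMC replicate 2 lay within the pericyte range, and the log2 fold change of -0.84 was not called (SE 0.33, limma q = 0.122). Plxna2 measured 1.84, 1.16, 0.774 and 2.40 FPKM in pericytes and 2.10, 2.79, 3.89 and 7.40 FPKM in SMCs, with 1 pericyte library inside the SMC range (log2 fold change -0.93, SE 0.34, limma q = 0.106). Plxnd1, an endothelial receptor of class 3 semaphorins, measured 0.831, 0.915, 1.40 and 1.54 FPKM in pericytes and 1.62, 1.72, 2.64 and 2.74 FPKM in SMCs. Its groups did not overlap but the call was missed (log2 fold change -0.55, SE 0.17, limma q = 0.0601).

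The 2 plexins called higher in SMCs were of low level. Plxna1 reached 0.809, 0.696, 1.22 and 1.42 FPKM in SMCs against 0.344 to 0.557 FPKM in pericytes (log2 fold change -0.48, SE 0.13, limma q = 0.0345). Plxna4 measured 0.181, 0.123, 0.139 and 0.145 FPKM in pericytes and 0.296, 0.284, 0.439 and 0.432 FPKM in SMCs (log2 fold change -0.25, SE 0.06, limma q = 0.0273). The opposite-strand transcript B230378P21Rik lies inside Plxna4, at 0.1004 FPKM in pericytes and 0.489 FPKM in SMCs, and use of strand in counting is not given in the sources used here. Both calls were lost without certain libraries, namely pericyte replicates 1, 3 or 4 for Plxna1, pericyte replicates 2, 3 or 4 for Plxna4 and SMC replicates 3 or 4 for either, with q up to 0.0907 and 0.0794. The call of Plxna1 was also lost with no filter or an intensity trend, and that of Plxna4 with quantile scaling. With the replicate number as a block, both were lost (limma q = 0.0675 and 0.0742). Plxna3, Plxnb1 and Plxnb3 ranged from 0.187 to 3.83 FPKM over all libraries and overlapped between groups.

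None of the 14 Eph receptors was called higher in pericytes, and 5 were called higher in SMCs, with a median log2 fold change of -0.56, or -0.29 without SMC replicate 3. Their FPKM summed to 17.1 ± 6.05 (SD, n = 4) in pericytes and 45.7 ± 11.9 in SMCs. Epha3 (ENSMUSG00000052504, chr16:63543364-63863984, minus strand, Build 37), a receptor of A-type ephrins, had the smallest q of the class. It measured 0.923, 0.418, 0.228 and 0.515 FPKM in pericytes and 6.31, 10.1, 4.41 and 7.20 FPKM in SMCs. No SMC library came near the pericyte range (log2 fold change -2.37, SE 0.23, limma q = 0.000497, ratio 13.4). Epha4, which binds ephrins of both types, had 0.898 ± 0.574 FPKM in pericytes and 4.92 ± 0.833 in SMCs (log2 fold change -1.68, SE 0.22, limma q = 0.00179), and Epha7 had 0.758 ± 0.420 and 4.39 ± 1.86 FPKM (log2 fold change -1.58, SE 0.30, limma q = 0.00849). Both separated the groups.

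Ephb4 (chr5:137791337-137819897, plus strand, Build 37), the receptor of venous endothelium, was the most abundant Eph receptor of SMCs. It measured 1.35, 1.65, 1.48 and 3.69 FPKM in pericytes and 6.32, 5.99, 18.2 and 16.0 FPKM in SMCs. The groups were apart (log2 fold change -1.96, SE 0.41, limma q = 0.0139), and SMC replicates 3 and 4 were the high ones. The endothelial, pericyte and smooth muscle marker sums were also higher in these replicates. Ephb2 was called at low level, at up to 0.245 FPKM in pericytes and 0.457 to 0.802 FPKM in SMCs (log2 fold change -0.53, SE 0.10, limma q = 0.00824).

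Of the 9 Eph receptors without a call, Ephb6, which lacks kinase activity, and Epha2, a main receptor of Efna1, were the most abundant. Ephb6 measured 3.52, 1.05, 8.54 and 10.2 FPKM in pericytes and 1.99, 1.98, 7.53 and 8.55 FPKM in SMCs, with the replicates spread in the same way in both groups (log2 fold change 0.11, SE 0.66, limma q = 0.933). Epha2 measured 4.70, 2.78, 6.75 and 5.74 FPKM in pericytes and 4.44, 4.32, 15.4 and 11.1 FPKM in SMCs, which overlapped (log2 fold change -0.59, SE 0.43, limma q = 0.437). Ephb3 had 0.331 ± 0.267 FPKM in pericytes and 1.23 ± 0.538 in SMCs (limma q = 0.0558). Ephb1 ranged from 0.495 to 1.29 FPKM in pericytes and 0.364 to 1.08 FPKM in SMCs. Epha1 ranged from 0.185 to 0.556 and 0.413 to 3.22 FPKM, and its span overlaps Zyx on the opposite strand, a gene at 109 and 91.6 FPKM. Epha5, Epha6, Epha8 and Epha10 stayed at or below 0.306 FPKM, and Epha8 was above 0 in pericyte replicate 3 alone.

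Ephrins, the ligands of Eph receptors, summed to 17.0 ± 0.724 FPKM (SD, n = 4) in pericytes and 82.6 ± 33.9 in SMCs, and Efna1 made up most of the sum in both. Of 9 ephrin entries 4 were called, all higher in SMCs, and the median log2 fold change was -0.75. Efna1 (ENSMUSG00000027954, chr3:89075655-89085064, minus strand, Build 37), an anchored ligand of EphA receptors that endothelial cells induce on inflammatory signals, measured 12.5, 12.8, 12.5 and 10.8 FPKM in pericytes and 43.5, 44.0, 93.5 and 73.0 FPKM in SMCs. The pericyte libraries were close together and all below the SMC libraries, with a log2 fold change of -2.22 (SE 0.25, limma q = 0.000971) and a ratio of 5.23.

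Efnb2, the arterial ephrin and ligand of Ephb4, measured 1.13, 1.09, 0.889 and 0.881 FPKM in pericytes and 1.64, 2.57, 3.01 and 2.30 FPKM in SMCs. The groups were apart (log2 fold change -0.75, SE 0.13, limma q = 0.00636). Efna2 and Efna4 were called at low level, with means of 0.241 and 0.190 FPKM in pericytes and 0.961 and 0.834 FPKM in SMCs (limma q = 0.0108 and 0.00594). Efnb1, another transmembrane ephrin, measured 0.949, 0.661, 2.42 and 3.49 FPKM in pericytes and 3.08, 3.27, 14.3 and 15.3 FPKM in SMCs. It was not called (log2 fold change -1.61, SE 0.59, limma q = 0.103), and pericyte replicate 4 lay above SMC replicates 1 and 2. With replicates 1 and 2 against 3 and 4 as a covariate it was called (limma q = 0.00134). Efna3 ranged from 0 to 0.923 FPKM in pericytes and 0.538 to 1.33 FPKM in SMCs (limma q = 0.0803). Efnb3 separated the groups at 0.155 to 0.560 against 0.659 to 3.89 FPKM without a call (limma q = 0.106).

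Efna5 is listed under 2 identifiers. ENSMUSG00000090425 (chr17:62953641-62956056) lies inside ENSMUSG00000048915 (chr17:62953533-63230666) on the same strand in Build 37, so the counting could have split their reads and both are uncertain. The inner entry measured 0.258 to 1.15 FPKM in pericytes and 1.27 to 3.99 FPKM in SMCs (limma q = 0.0789), whereas the outer entry stayed at or below 0.353 FPKM.

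The Slits, large secreted ligands, and their Robo receptors were called only in the SMC direction. Slit3 (chr11:34934726-35522009, plus strand, Build 37) measured 0.423, 0.353, 0.567 and 1.52 FPKM in pericytes and 3.29, 2.52, 7.46 and 7.99 FPKM in SMCs. All SMC libraries were above all pericyte libraries (log2 fold change -1.81, SE 0.37, limma q = 0.0117, ratio 7.43). Slit2 measured 0.318, 0.578, 0.0317 and 0.201 FPKM in pericytes and 0.541, 0.998, 1.92 and 2.21 FPKM in SMCs. Its groups overlapped slightly, and its call (log2 fold change -0.87, SE 0.26, limma q = 0.0498) was lost without pericyte replicate 1, 3 or 4 or SMC replicate 2, 3 or 4, with q up to 0.122, and with no filter or median-ratio scaling. The replicate number as a block also ended the call of Slit2 (limma q = 0.117). Slit1, the form best known from the nervous system, stayed at or below 0.433 FPKM.

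Robo4 (ENSMUSG00000032125, chr9:37209482-37221608, plus strand, Build 37), the endothelial Robo, was the most abundant of its family. It measured 2.28, 1.90, 3.48 and 2.88 FPKM in pericytes and 6.10, 7.51, 34.6 and 34.8 FPKM in SMCs. The groups were apart, but the SMC libraries fell into a lower and an upper pair. The log2 fold change was -2.22 (SE 0.60, limma q = 0.0357, ratio 7.88), and the call was lost without any 1 of the 4 pericyte libraries or without SMC replicate 3 or 4 (q up to 0.0818), and with no filter. The endothelial marker sum was also higher in SMC replicates 3 and 4 (1367 and 1698 FPKM) than in replicates 1 and 2 (607 and 817 FPKM), by 2.15 times. The pericyte and smooth muscle marker sums were higher there by 3.34 and 2.39 times. Among the pericyte libraries, Robo4 was highest in replicate 3, where the endothelial sum was lowest (129 FPKM). The part of these cell types in the Robo4 difference was not tested. Robo1, a Slit receptor of many cell types, had 0.982 ± 0.316 FPKM (SD, n = 4) in pericytes and 1.91 ± 0.462 in SMCs with overlapping groups. Its call (log2 fold change -0.55, SE 0.16, limma q = 0.0422) was lost without pericyte replicate 2, 3 or 4 or SMC replicate 2, 3 or 4, with q up to 0.103, and with a pseudocount of 0.1, either other filter or an intensity trend. The replicate number as a block also ended the call of Robo1 (limma q = 0.119). Robo2 measured 2.00, 0.975, 0.604 and 1.09 FPKM in pericytes and 1.36, 2.37, 3.09 and 1.02 FPKM in SMCs, which overlapped (log2 fold change -0.43, SE 0.28, limma q = 0.364), and Robo3 stayed at or below 0.211 FPKM.

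All 4 netrins had a log2 fold change below 0, with a median of -0.77, and 3 were called higher in SMCs. Ntn4 (chr10:93103426-93209952, plus strand, Build 37), a basement membrane netrin that binds laminin, measured 0.487, 0.694, 0.434 and 0.975 FPKM in pericytes and 1.99, 2.09, 2.19 and 2.52 FPKM in SMCs. The SMC libraries were close together and above every pericyte library (log2 fold change -0.97, SE 0.11, limma q = 0.00113). Ntn1, the classical netrin that acts through Dcc and Unc5 receptors, measured 0.970, 1.08, 1.05 and 1.13 FPKM in pericytes and 2.77, 2.38, 6.10 and 4.70 FPKM in SMCs. The groups were apart (log2 fold change -1.21, SE 0.23, limma q = 0.00941). Ntn3 was called at 0.111 to 0.356 FPKM in pericytes against 0.512 to 1.17 FPKM in SMCs (limma q = 0.0157), and its span overlaps Tbc1d24 on the same strand, at 0.552 and 0.787 FPKM. Ntn5 measured 3.27, 2.53, 1.24 and 3.11 FPKM in pericytes and 5.40, 3.88, 2.37 and 2.96 FPKM in SMCs, with overlap and no call (log2 fold change -0.40, SE 0.27, limma q = 0.396).

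**Figure D4:**
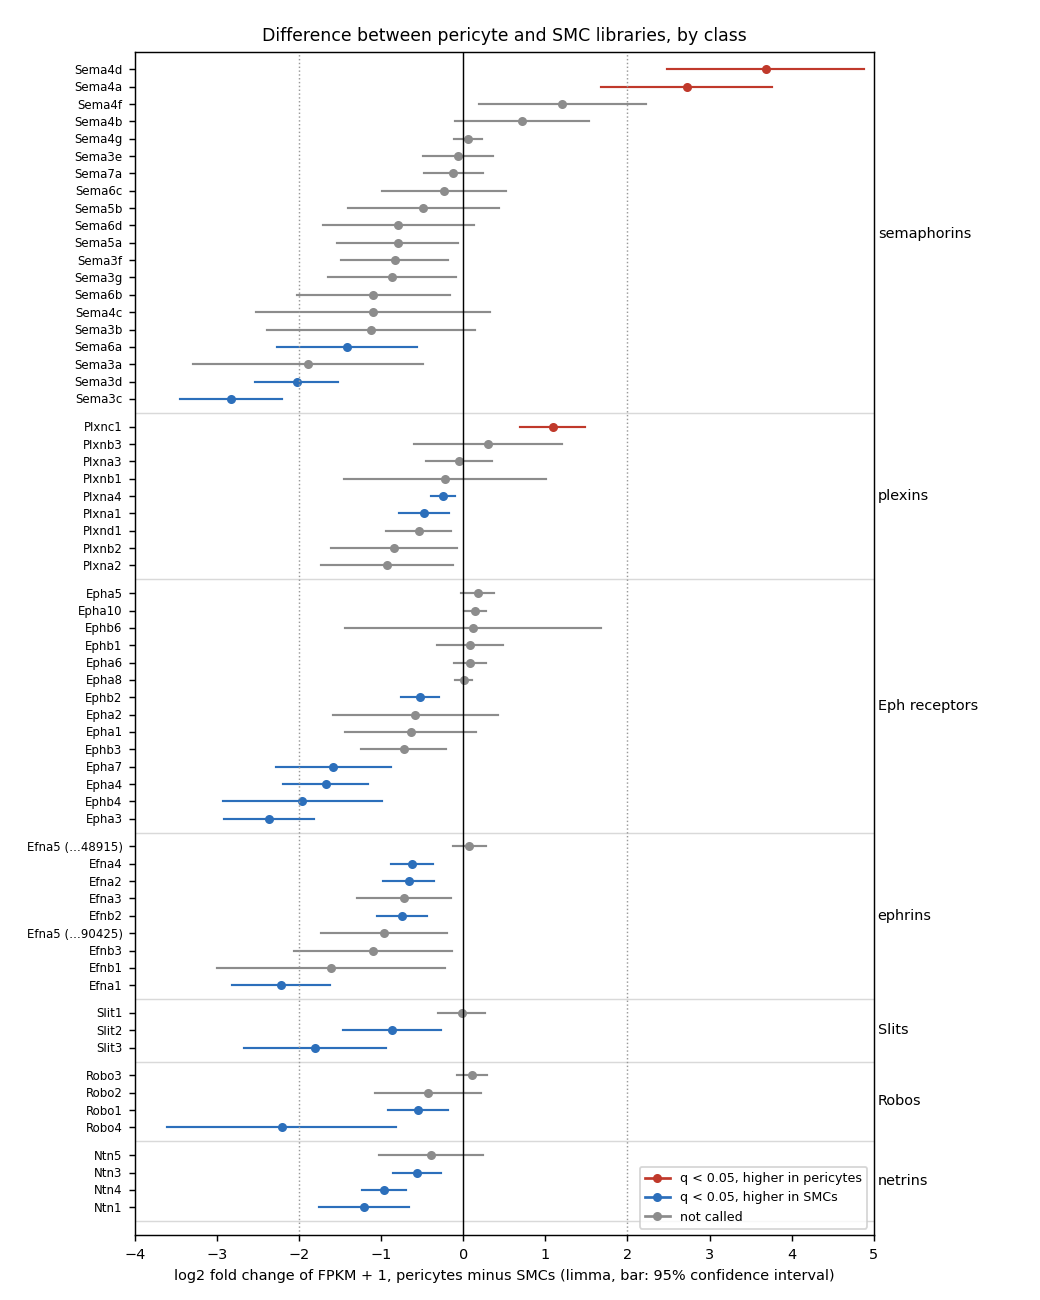
Log2 fold change of FPKM + 1, pericytes minus SMCs, of each member with its limma 95% confidence interval, grouped by class and coloured by call, with dotted lines at -2 and 2. Points to the right of 0 are few and led by Sema4d and Sema4a, and the 21 genes called higher in SMCs come from all 7 classes.

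Promoter sequence was compared for the called members, to see whether genes that were higher in the same group share letters upstream of their start. RefSeq promoter windows of GRCm38.p6, a different build from that of the gene positions above, were found for 54 of the 62 symbols, and the 250 bases before the start were searched on both strands. The motifs were the GC box GGGCGG, the CCAAT box CCAAT, the TATA box TATAAA, the ETS core CCGGAA and the CArG box of smooth muscle genes. Shown are all members with a single listed start that were higher in SMCs past the fold (Sema3c, Sema3d, Epha3 and Robo4) or higher in pericytes (Plxnc1). Windows are written 5′ to 3′ on the gene's strand, and capitals mark motif matches on either strand.
Sema3c (chr5:17574566-17574815, plus strand): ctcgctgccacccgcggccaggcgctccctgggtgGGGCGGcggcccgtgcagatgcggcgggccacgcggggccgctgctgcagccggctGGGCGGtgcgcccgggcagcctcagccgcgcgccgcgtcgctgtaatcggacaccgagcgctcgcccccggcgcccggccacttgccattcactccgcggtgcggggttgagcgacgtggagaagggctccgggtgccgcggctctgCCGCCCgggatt
Sema3d (chr5:12382916-12383165, plus strand): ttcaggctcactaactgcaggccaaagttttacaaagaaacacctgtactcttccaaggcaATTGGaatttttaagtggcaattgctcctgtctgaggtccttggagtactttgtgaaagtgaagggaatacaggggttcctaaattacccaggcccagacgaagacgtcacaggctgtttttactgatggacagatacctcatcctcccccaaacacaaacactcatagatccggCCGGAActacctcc
Epha3 (chr16:63864176-63864425, minus strand): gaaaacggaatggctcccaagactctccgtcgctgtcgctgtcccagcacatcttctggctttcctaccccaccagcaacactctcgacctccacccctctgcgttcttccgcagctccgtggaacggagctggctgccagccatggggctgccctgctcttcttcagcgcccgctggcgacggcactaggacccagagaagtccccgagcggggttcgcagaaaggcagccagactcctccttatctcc
Robo4 (chr9:37401722-37401971, plus strand): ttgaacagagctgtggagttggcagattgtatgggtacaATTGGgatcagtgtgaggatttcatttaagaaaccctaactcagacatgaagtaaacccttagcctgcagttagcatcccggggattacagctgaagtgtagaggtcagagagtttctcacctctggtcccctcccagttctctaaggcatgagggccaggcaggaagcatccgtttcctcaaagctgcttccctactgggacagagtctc
Plxnc1 (chr10:94944846-94945095, minus strand): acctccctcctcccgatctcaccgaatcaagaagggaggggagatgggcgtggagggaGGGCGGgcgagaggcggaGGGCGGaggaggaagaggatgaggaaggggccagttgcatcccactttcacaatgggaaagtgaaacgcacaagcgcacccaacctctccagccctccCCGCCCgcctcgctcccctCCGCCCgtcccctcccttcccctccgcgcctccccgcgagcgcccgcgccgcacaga

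The Sema3c window held 39 CpG dinucleotides and 3 GC boxes, and the Plxnc1 window 22 CpG and 4 GC boxes. Sema3d had 4 CpG, 1 CCAAT box and 1 ETS core, and Robo4 had 2 CpG and 1 CCAAT box. Epha3 had 16 CpG and none of these motifs. Over all 32817 windows of this length, the median was 6 CpG, and 32.7% held a GC box, 33.8% a CCAAT box, 12.4% a TATA box, 12.0% an ETS core and 1.47% a CArG box. Among the 15 members with a single start that were called higher in SMCs, 9 held a GC box, 7 a CCAAT box, 2 a TATA box, 2 an ETS core and 1 (Robo1) a CArG box, with a median of 16 CpG. Among the 26 with a single start that were not called, 19 held a GC box and 6 a CCAAT box, and the median was 15.5 CpG. Of the 15, 13 had more CpG than the median of all windows, and Sema3d and Robo4 had fewer. A match describes the letters only. Sema4a and Sema4d have 4 and 3 listed starts and are not shown.

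Co-receptors, partners and effectors of these pathways were listed separately, and 93 entries were measured. Of these, 8 were called higher in pericytes and 21 higher in SMCs, with a median log2 fold change of -0.20, beside the 10.6% and 11.2% of all genes tested given above. Among the 35 co-receptors and partners, 1 was higher in pericytes and 11 in SMCs, and among the 58 intracellular effectors, 7 and 10. A total of 72 of the 93 entries had a mean of at least 1 FPKM, and all 8 and all 21 called were among these 72. Of all genes at that level, 19.7% and 19.5% were called. The 72 comprised 21 co-receptors and partners, with 1 and 11 called, and 51 effectors, with 7 and 10 called. For effectors, 10 of 51 is near the 19.5%. Nrp1, a neuropilin that class 3 semaphorins use, measured 10.1, 5.53, 9.13 and 15.7 FPKM in pericytes and 49.8, 55.6, 55.1 and 87.9 FPKM in SMCs. The groups were far apart (log2 fold change -2.55, SE 0.31, limma q = 0.00117). Nrp2 measured 2.32, 1.35, 6.17 and 5.40 FPKM in pericytes and 4.30, 6.98, 20.3 and 24.5 FPKM in SMCs, with overlap and no call (limma q = 0.139).

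Other surface partners past a log2 fold change of 2 in size in SMCs were Sdc2 and Flrt2. Sdc2, a heparan sulphate proteoglycan, measured 22.9, 19.6, 8.14 and 19.0 FPKM in pericytes and 180, 171, 99.5 and 134 FPKM in SMCs (log2 fold change -3.05, SE 0.34, limma q = 0.000813). Flrt2, a ligand of Unc5 receptors, measured 0.885, 0.377, 0.714 and 1.27 FPKM in pericytes and 3.798, 5.79, 8.39 and 8.87 FPKM in SMCs (log2 fold change -2.06, SE 0.26, limma q = 0.00152). Both separated the groups.

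Of the netrin receptors, Neo1 measured 1.02, 1.29, 0.0798 and 0.392 FPKM in pericytes and 3.95, 3.42, 2.53 and 1.88 FPKM in SMCs (log2 fold change -1.25, SE 0.28, limma q = 0.0178). Unc5b, a receptor of endothelial cells, measured 0.267, 0.240, 0.179 and 0.692 FPKM in pericytes and 1.87, 1.27, 1.97 and 1.76 FPKM in SMCs (log2 fold change -1.02, SE 0.14, limma q = 0.00211). Neither overlapped between groups. Dcc measured 0.0678, 0.0485, 0.172 and 0 FPKM in pericytes and 0.0872, 0.0484, 0.0318 and 0.0380 FPKM in SMCs, near 0 in both (limma q = 0.832).

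Of the 58 effectors, 4 passed the same fold in SMCs, and 7 of all 93 entries did, beside 2.66% of all genes tested. Dpysl3, a collapsin response mediator, measured 7.74, 6.22, 6.37 and 8.93 FPKM in pericytes and 48.3, 47.5, 61.0 and 58.2 FPKM in SMCs (log2 fold change -2.72, SE 0.14, limma q = 3.0e-05). Chn1, a Rac regulator that acts after Epha4, measured 3.19, 3.15, 1.91 and 4.44 FPKM in pericytes and 13.2, 18.4, 11.3 and 21.7 FPKM in SMCs (log2 fold change -2.03, SE 0.25, limma q = 0.00140). Both were well apart in all libraries. Rras, a small GTPase that plexins inactivate, measured 14.7, 78.2, 32.8 and 70.3 FPKM in pericytes and 255, 160, 185 and 172 FPKM in SMCs (log2 fold change -2.20, SE 0.51, limma q = 0.0210). Rnd1, a GTPase that binds plexins, measured 6.92, 9.78, 8.004 and 30.1 FPKM in pericytes and 31.9, 41.8, 155 and 233 FPKM in SMCs (log2 fold change -2.77, SE 0.75, limma q = 0.0378). Their groups did not overlap, though pericyte replicate 4 came close to SMC replicate 1 in Rnd1.

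In pericytes, 2 of the 93 entries passed the fold, no larger a share than the 3.24% of all genes tested that did. Cd72, the B cell receptor of Sema4d, measured 172, 160, 141 and 114 FPKM in pericytes and 9.47, 9.54, 5.71 and 7.78 FPKM in SMCs (log2 fold change 4.03, SE 0.19, limma q = 2.4e-05). Evl, an actin regulator abundant in lymphocytes, measured 17.1, 16.8, 26.3 and 18.3 FPKM and 0.938, 0.993, 1.27 and 0.960 FPKM (log2 fold change 3.32, SE 0.15, limma q = 1.9e-05). For both genes every pericyte library was above every SMC library, as for the B cell and T cell markers, whose part was not tested. The count of 8 higher in pericytes became 4 without pericyte replicate 4 or SMC replicate 1, and 5 without SMC replicate 2.

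Replicates 3 and 4 of the SMCs had more of many members than replicates 1 and 2. In SMCs, 35 of 63 members were higher in both of replicates 3 and 4 than in both of replicates 1 and 2, compared with 19.5% of all genes, and in pericytes 23 were, compared with 14.8%. Among members with a mean of at least 1 FPKM these were 28 and 19 of 40, against 31.2% and 24.5% of genes at that level. In the other direction, 10 of 63 members were higher in both of SMC replicates 1 and 2, compared with 28% of all genes, among them Sema3c, Sema3a, Epha7 and Plxnc1. Of the 40 members with a mean of at least 1 FPKM, 6 were, against 33.6% of genes at that level. The endothelial marker sum was 2.15 times as high and the pericyte marker sum 3.34 times as high in SMC replicates 3 and 4 as in replicates 1 and 2, with 11 of 12 and 8 of 8 markers following. The smooth muscle marker sum was 2.39 times as high, with 8 of 8 markers following. Robo4, Ephb4, Efnb1, Efna1, Slit3 and Ntn1 were among the members that followed the same order, and the part of these cell types in it was not tested.

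The comparison was also run within each pair of replicates, with 2 libraries a group. The log2 fold change of Robo4 was -1.33 in replicates 1 and 2 (limma q = 0.0323) and -3.10 in replicates 3 and 4 (limma q = 0.0058), that of Ephb4 was -1.52 and -2.41, and that of Slit2 was -0.28 and -1.46. Sema3c did not shift in this way, at -2.87 and -2.80, and Sema4d measured 3.49 and 3.88. The sign was the same in both pairs for 56 of 62 members with a value in both. Of the 24 members called over all libraries, 11 were called in replicates 1 and 2, 16 in replicates 3 and 4, 10 in both and 7 in neither. Calls over all genes tested differed too, at 10.3% in replicates 1 and 2 and 25.9% in replicates 3 and 4. The 24 had been called on these same libraries, so the members' counts are a description and no separate support. Differences between the pairs were not tested. With replicates 1 and 2 against 3 and 4 as a covariate in 1 fit of all libraries, 38 members were called, the 24 called without it and 14 more. Calls over all genes tested also rose in that fit, from 21.8% to 28.2%. Of the 14, Sema4b was higher in pericytes, and Sema3a, Sema3b, Sema3f, Sema4c, Sema5a, Sema5b, Sema6b, Sema6d, Plxnd1, Ephb3, Efnb1, Efnb3 and the inner Efna5 entry were higher in SMCs, with limma q of 0.000651 (Plxnd1) to 0.0396 (Sema5a).

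**Figure D5:**
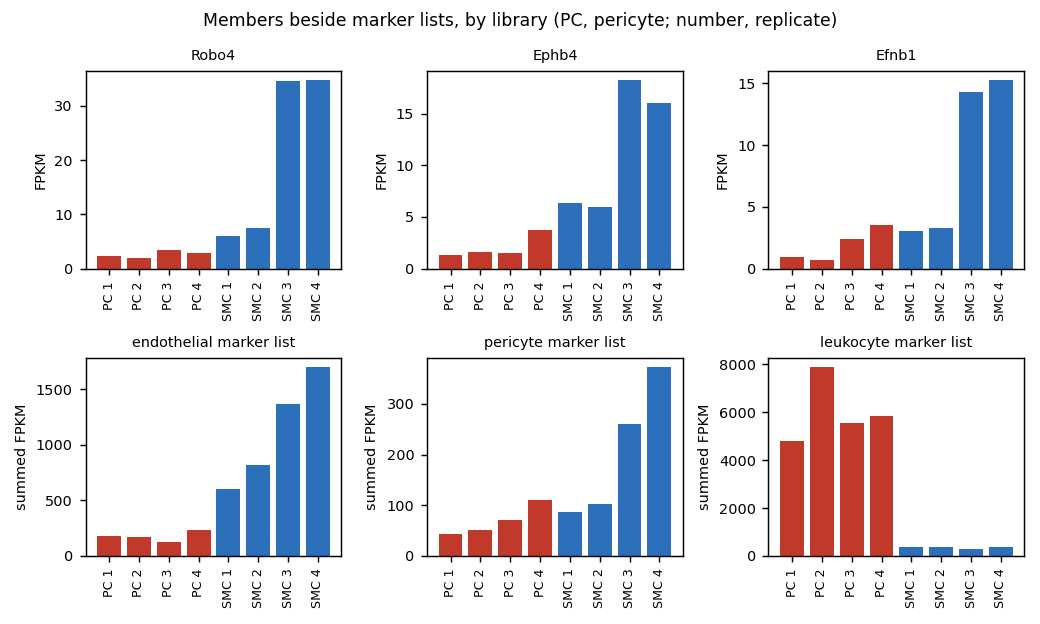
FPKM of Robo4, Ephb4 and Efnb1 (upper row) and summed FPKM of the endothelial, pericyte and leukocyte marker lists (lower row) in each pericyte (PC, red) and SMC (blue) library. SMC replicates 3 and 4 have the highest bars for the 3 members and for the endothelial and pericyte lists, whereas the leukocyte list is high in all pericyte libraries.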

How the data were processed

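RNA from 4 pericyte and 4 SMC samples was amplified with a SMART-Seq ultra-low input kit and sequenced from Nextera XT libraries. The authors checked the reads with FastQC, used Bowtie2 and TopHat with an Ensembl annotation to align them to NCBI Build 37 of the mouse genome, and deposited FPKM for 37979 genes. The deposited FPKM are not counts, so counting error is unknown, and the program that computed them and its use of strand are not given in the sources used here. All 8 columns of values were matched to samples by name, and 0 columns were left unmatched. Per the labels, all 8 libraries carry the same batch value, and what that batch refers to is not stated.

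Values were taken as log2(FPKM + 1) and fitted with limma 3.58.1 (lmFit and eBayes) in R 4.3.3, over all 27414 genes above 0 FPKM in at least 1 library, and only members are printed. A call needed a Benjamini-Hochberg adjusted p (q) below 0.05. As in the study, a log2 fold change above 2 in size was used as a stricter rule. The test was checked on simulated data. Tables and plots used Python 3.11.15, pandas 2.3.3, numpy 2.4.6, scipy 1.17.1 and matplotlib 3.10.9. Gene positions came from GENCODE version M1, which held all 63 members, and promoter windows from RefSeq (GRCm38.p6).

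The members, the pathway and marker lists and the tests were chosen with earlier results of these data known. Full values were given for members past both thresholds, for the 2 most abundant of each class, for the smallest q of each class and direction, and for a fixed list of vascular and immune members. Full values were also given for Nrp1, Nrp2, Neo1, Unc5b and Dcc and for pathway genes past both thresholds. Others are given by range or by mean, many with q, whether or not they were close to a call. Sema6a, a called member, is also given in full, and Ephb6, Sema3a and Sema4f were chosen after their values were seen. Other settings were no filter on low values, a requirement of 1 FPKM in 4 or more libraries, 0.1 as the pseudocount, TPM, quantile and median-ratio scaling, a replicate block, a covariate for replicates 1 and 2 against 3 and 4, an intensity trend, limma treat, means in place of medians, and each library left out. Proteins were not analysed here.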

Additional observations from a re-analysis of the deposited data

Results flagged for a closer look

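Efna1 in pericyte replicate 4, at 10.8 FPKM, stood apart from the other pericyte libraries, at 12.5, 12.8 and 12.5 FPKM: its gap to the nearest of them was 0.870 of the whole range of the group on the log2(FPKM + 1) scale. It was the 1 such sample among 92 groups of 4 libraries examined, and chance alone marks about 1 in 20 groups. The pericyte range stayed far below the lowest SMC library (43.5 FPKM).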

How the results depend on the processing

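Of the 24 called members, 18 kept their call at q below 0.05 in each setting over all libraries or without 1 of them that tested them, limma treat aside (4 of the 18 were not tested under the filter at 1 FPKM), 6 lost it in at least 1 (Slit2, Robo4, Sema6a, Plxna1, Plxna4 and Robo1), and none reversed. Members higher in SMCs numbered 34, not 21, with replicates 1 and 2 against 3 and 4 as a covariate, in a fit that called 14.3%, not 11.2%, of all genes higher in SMCs. Members past the fold in SMCs numbered 13, not 5, with a pseudocount of 0.1, and 3 to 6 with a library left out (3 without pericyte replicate 2, pericyte replicate 3 or SMC replicate 4). With the fold threshold inside the test (limma treat), 0 members passed in either direction, against 336 and 32 of all genes, while the ordinary test at q below 0.05 called 3 and 21 members. Pathway genes higher in pericytes numbered 5, not 8, with a pseudocount of 0.1, 4 with no filter, 5 with TPM scaling and 4 to 11 with a library left out. A pseudocount of 0.1 moved the median log2 fold change to -1.07 for all members, -0.85 for plexins, -1.01 for Eph receptors, -1.88 for ephrins, -2.05 for Slits and -1.59 for netrins. A filter at 1 FPKM in 4 libraries, which left 36 members, moved it to -1.63 for Eph receptors, -1.29 for ephrins, -1.81 for Slits and -0.97 for netrins, and TPM scaling moved netrins to -0.99. Further comparisons, chosen after seeing the data, used 2 libraries a group, and 9 of the 18 lost their call in at least 1 of them. Replicates 1 and 2 alone gave 12 members and 12 pathway genes higher in SMCs, 3 pathway genes higher in pericytes, 2 members past the fold in SMCs, and medians of -0.21 for Eph receptors and -0.28 for Slits. Fewer genes of any kind were called in that fit, at 10.3% of all genes tested against 21.8% over all libraries. Replicates 3 and 4 alone gave 25 members higher in SMCs, in a fit that called 25.9% of all genes tested. They also gave 9 members past the fold in SMCs and a median of -1.46 for Slits. The log2 fold change of Dcc changed sign, to -0.0072 with quantile scaling, -0.018 to 0.059 with a library left out (below 0 without pericyte replicate 3) and -0.013 in replicates 1 and 2, at levels near 0. Same-numbered libraries correlated at 0.0794 to 0.474 across genes (mean 0.327, above 0.1 in 3 of 4 pairs). The sources used here do not say whether same-numbered libraries share animals. The main fit did not take the numbers as pairs, and these correlations do not settle whether it should have. With the replicate block, 4 members were called higher in pericytes and 27 in SMCs, 20 of these 31 also called without it, and 4 calls were lost (Plxna1, q = 0.0675, Plxna4, q = 0.0742, Slit2, q = 0.117, and Robo1, q = 0.119). The calls gained with the block were Sema4b in pericytes, and Sema3b, Sema3f, Sema4c, Sema5b, Sema6b, Sema6d, Plxnd1, Ephb3, Efna3 and Efnb1 in SMCs. Their limma q ran from 0.00692 (Plxnd1) to 0.0420 (Sema4b). Of the pericyte libraries 2 of 4, and of the SMC libraries 3 of 4, correlated best with their own number. The causes of these shifts were not tested, and the depth behind low FPKM values is unknown.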
